A study of Mus musculus with 69 samples.

Results

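The 47 genes described here encode synaptic adhesion organizers, the cell-surface proteins that bind one another across the synaptic cleft. They were taken from a table of 17634 mouse genes by matching the table's Ensembl identifiers to their symbols, and all 47 were found. They fall into 13 families. The presynaptic group held 2 neurexins, 3 receptor tyrosine phosphatases of the LAR type and 2 netrin-G proteins. The postsynaptic group held 3 neuroligins, 4 LRRTM, 5 SLITRK, 5 SALM and 3 netrin-G ligand (NGL) proteins, with 3 calsyntenins and Il1rapl1. The remaining members were 6 contactins and Caspr proteins, 3 FLRT proteins, 4 teneurins and 3 SynCAM proteins.

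Presynaptic neurexins and LAR-type phosphatases act as hubs, each binding several unrelated postsynaptic partners such as neuroligins, LRRTMs, SLITRKs, SALMs and calsyntenins. Such pairs can gather release machinery on one side of the cleft and receptors with their scaffolds on the other, and some members are known mainly from excitatory synapses (Nlgn1, the LRRTMs) and others from inhibitory ones (Nlgn2, Slitrk3). A cell's own set of organizers therefore bears both on the synapses it makes and on those it receives.

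Libraries were made from ribosome-bound polyadenylated RNA of young adult mice, 70 to 100 days old, by the RiboTag method, in which Cre recombination adds a haemagglutinin tag to the ribosomal protein RPL22 and the tagged ribosomes are pulled down. PV-Cre-Rpl22HA/HA mice tag cells that express parvalbumin (Pvalb), in cortex mostly fast-spiking inhibitory interneurons. Camk2a-Cre-Rpl22HA/HA mice tag mostly excitatory neurons. Each line carried either wild-type Fmr1 (WT) or the Fmr1 knockout (KO), the mouse model of fragile X syndrome, which lacks the RNA-binding protein FMRP; the primary visual cortex (V1) and the primary somatosensory cortex (S1) were dissected separately. Of 69 libraries in 8 groups, 10 belonged to each of the 4 PV groups. The Camk2a V1 groups held 8 WT and 6 KO libraries, and the Camk2a S1 groups 8 WT and 7 KO libraries. These came from 37 animals, named by the codes in the library names (P for PV, C for Camk2a), and 32 animals gave both areas. All groups carried the tagged Rpl22 allele and a Cre driver, so each cell class came from its own line and its own animals, and the class and the line cannot be told apart.

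Library totals ran from 27.64 M to 49.11 M estimated counts (M for 1000000). The 12 PV interneuron markers together reached 9959 to 12510 CPM (counts scaled to a library total of 1000000) in PV libraries and 256 to 1840 CPM in Camk2a libraries, and the 12 excitatory markers 1245 to 2471 and 12530 to 15220 CPM. Among Camk2a libraries, the 6 of animals C3 (KO), C18 and C19 (WT) had 18.8 to 112.1 CPM of Pvalb, against 1.80 to 17.2 CPM in the other 23. Fmr1 had a median of 45.2 to 79.9 CPM in the 4 WT groups and of 8.18 to 10.7 CPM in the 4 KO groups, without overlap. In 9 libraries, genes outside the 47 that differ between areas had levels on the side of the other area: both libraries of P9, P22 and C24 and the V1 libraries of P24, C18 and C19. On the score used, which is higher toward V1, the V1 libraries of C18 and C19 stood near the cut (-0.03 and 0.03). The S1 libraries of these animals stood at -0.89 and -0.84, so their areas kept the labelled order. The V1 library of C24 had a score of -0.08 and its S1 library 0.61. The S1 library of C24 is the only one labelled Batch 2. The sex label and the Y-linked genes differed in 3 animals, P11 (PV KO), C16 and C23 (both Camk2a WT). These 3 stayed in the main fits with the sex of their label, and sex by Y-linked genes was an alternative. Results that rest on the animals with high PV markers or with area genes on the other side are given with and without those animals.

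Promoter sequence is shown for the members with the largest class differences that have a single RefSeq start and a window with at most 30 bases inside an annotated gene, so that the run is mostly sequence upstream of the gene. Of these windows, Clstn2 has 14 and Ptprf 8 bases inside its own gene, and Slitrk1 has 0. RefSeq (GRCm38.p6) gave 48 promoters for 36 members. Each run below is the 250 bases before the start, written 5′ to 3′ on the gene's strand, which is the minus strand in all 3. Capitals mark matches on either strand to TGACGTCA (the cAMP response element), GGGCGG (the GC box), CAGATG (a basic helix-loop-helix E-box) or TAATTA (a LIM homeodomain core), none of which overlapped another.
Clstn2, chr9:98033168-98033417: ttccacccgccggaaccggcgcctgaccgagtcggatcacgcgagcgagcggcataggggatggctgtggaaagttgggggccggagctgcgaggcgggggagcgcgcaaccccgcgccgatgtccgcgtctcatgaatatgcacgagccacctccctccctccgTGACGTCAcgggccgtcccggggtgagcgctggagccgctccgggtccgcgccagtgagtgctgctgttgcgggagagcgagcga
Ptprf, chr4:118291398-118291647: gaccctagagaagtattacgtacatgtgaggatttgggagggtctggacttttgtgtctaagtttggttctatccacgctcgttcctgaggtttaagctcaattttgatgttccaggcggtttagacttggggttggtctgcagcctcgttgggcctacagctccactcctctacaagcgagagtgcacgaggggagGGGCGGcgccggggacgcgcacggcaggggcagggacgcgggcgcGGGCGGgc
Slitrk1, chr14:108914240-108914489: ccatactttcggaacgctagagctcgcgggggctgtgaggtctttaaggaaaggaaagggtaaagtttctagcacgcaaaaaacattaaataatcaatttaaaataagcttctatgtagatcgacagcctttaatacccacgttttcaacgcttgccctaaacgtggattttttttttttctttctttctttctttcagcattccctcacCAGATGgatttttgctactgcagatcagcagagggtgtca
The window of Clstn2, a calsyntenin with a higher level in PV libraries, had a GC content of 70.8% and 1 cAMP response element. That element stood in 1.55% of all 32851 RefSeq promoters of this length and in 3 of the 48 member promoters, those of Clstn2, Slitrk2 and Tenm3. The Ptprf window (59.2% GC) held 2 GC boxes, a motif of 32.7% of all promoters and of 11 of the 48. The Slitrk1 window (40.4% GC) held 1 E-box, found in 14.4% of all promoters and in 5 of the 48. TAATTA stood in 4.84% of all promoters and in 3 of the 48. The member promoters had a median GC content of 53.0%, against 52.4% for all. These matches are letters in a window and were not tested as binding sites.

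Set per length of the longest transcript, the members covered a wide range of levels in WT libraries. Clstn1, a calsyntenin that also links kinesin to its cargo, was the highest in both classes, with a mean of 434 CPM per kb in PV and 791 in Camk2a libraries. Clstn3 followed in PV libraries with 260 CPM per kb (152 in Camk2a), and Cadm3, a SynCAM protein, came after Clstn1 in Camk2a libraries with 156 CPM per kb (81.4 in PV). At the low end, Il1rapl1, a postsynaptic partner of Ptprd, stood at 1.88 CPM per kb in PV and 2.08 in Camk2a libraries. The lowest member in Camk2a libraries was Tenm1, at 1.53 CPM per kb (5.03 in PV), and Cntnap4 moved from rank 14 in PV (35.4 CPM per kb) to rank 45 in Camk2a libraries (2.86).

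The first comparison asked how the 47 mRNAs differ between the ribosomes of PV and of Camk2a cells. Most were at different levels: 35 were called in all 4 pairs of groups (WT and KO, V1 and S1) with the same sign, 10 of them higher and 25 lower in PV libraries. In WT mice, 42 members were called in V1 (11 higher, 31 lower) and 41 in S1 (12 and 29). In KO mice, 39 were called in V1 (11 and 28) and 41 in S1 (11 and 30). Called means an adjusted p under 0.05 in edgeR's quasi-likelihood test with Benjamini-Hochberg adjustment over all genes tested, as for every adjusted p below. Of all genes tested, 77.3% were called in WT V1 (39.8% higher, 37.5% lower), 77.2% in WT S1 (39.1% and 38.1%), 74.3% in KO V1 (38.3% and 35.9%) and 77.7% in KO S1 (39.8% and 37.9%). These shares are high for any list, so the number of members called says little about this list in particular. The share of all genes called in all 4 pairs with the same sign was not computed, so the count of 35 has no such share beside it. The higher-to-lower split was uneven for the members, whose median log2 difference (PV minus Camk2a) was -0.40, -0.27, -0.52 and -0.44, while the median of all genes was 0.03, 0.02, 0.04 and 0.03. In 26 members (8 higher, 18 lower) no PV library overlapped any Camk2a library in all 4 pairs, which held for 29.2% of all genes. In bulk libraries, fewer cells of a type and less RNA per cell cannot be told apart.

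**Figure D1:**
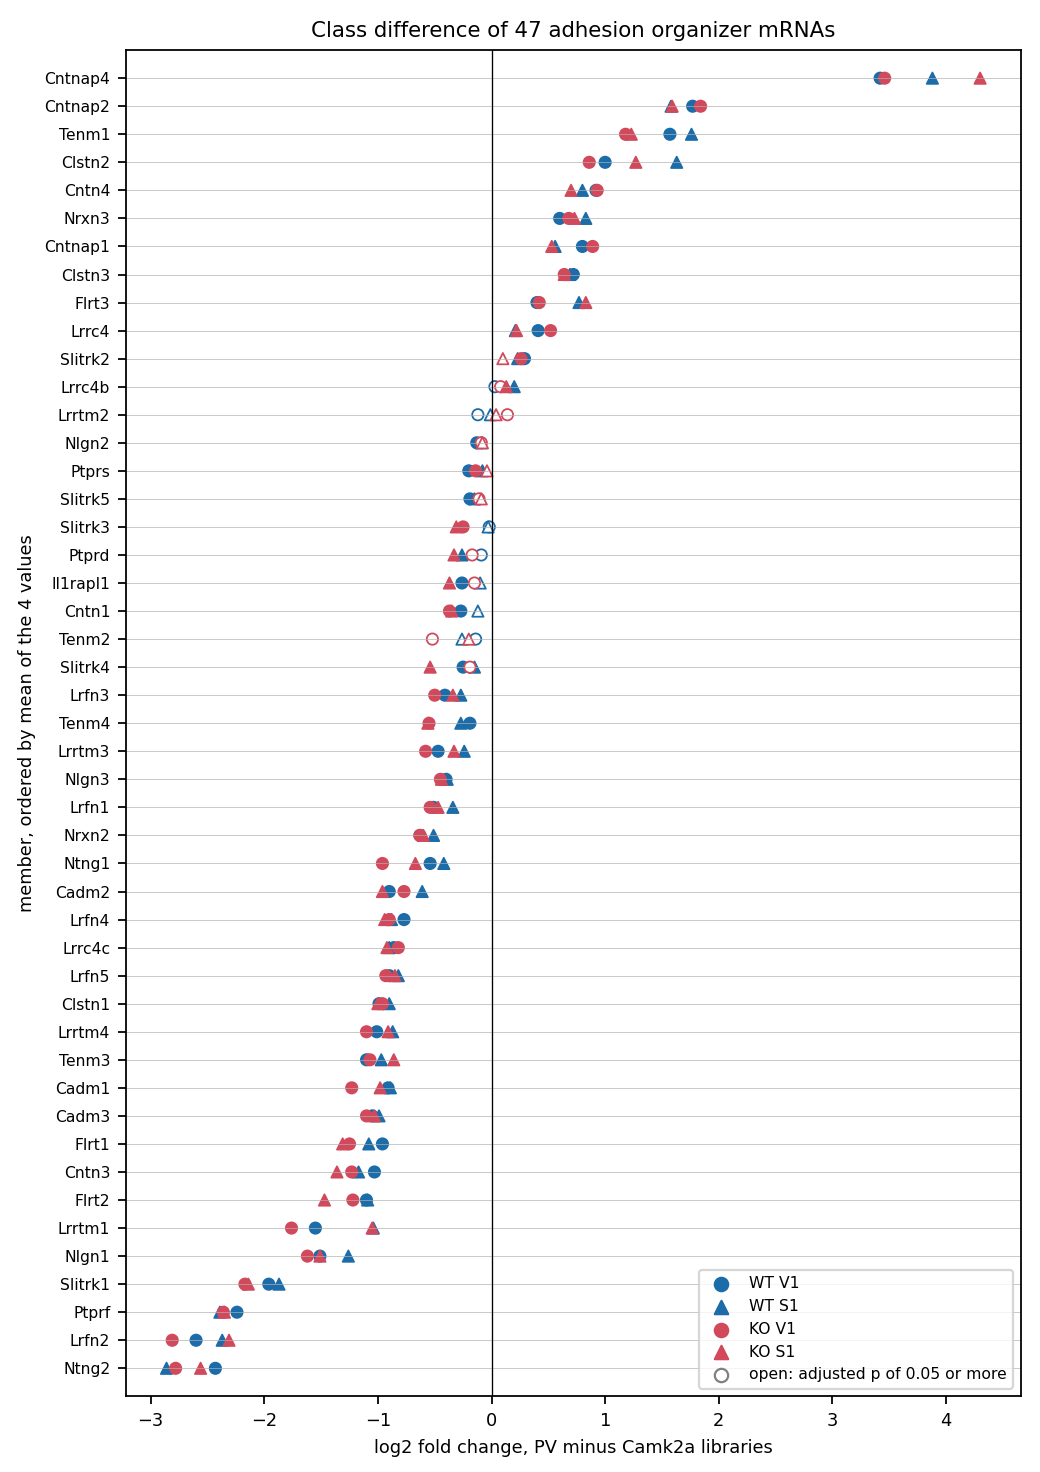
Log2 fold change of each of the 47 members between PV and Camk2a libraries (x axis, log2 units) in WT and KO, V1 and S1, ordered by the mean of the 4 values (y axis); filled symbols were called at an adjusted p under 0.05. Cntnap4 stands alone at the top with 3.42 to 4.30, and the lower end is led by Ntng2, Lrfn2, Ptprf and Slitrk1.

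Among the presynaptic hubs, the 2 neurexins differed in opposite directions. Nrxn3 was at 407 to 613 CPM (median 519) in PV WT V1 libraries and at 269 to 360 CPM (median 331) in Camk2a WT V1 libraries. Nrxn2 was at 424 to 508 CPM (median 474) in the PV and at 587 to 734 CPM (median 702.0) in the Camk2a libraries. For both genes every PV library lay on one side of every Camk2a library, in all 4 pairs. The log2 differences of Nrxn3 were 0.60 (SE 0.091), 0.83, 0.68 and 0.73, given here and below in the order WT V1, then WT S1, then KO V1 and last KO S1, and those of Nrxn2 were -0.63 (SE 0.057), -0.51, -0.63 and -0.60. Over all libraries of a class, Nrxn3 made up a median of 48.6% of the summed per-length level of these 2 neurexins in PV cells and 27.3% in Camk2a cells, and the ranges (43.8 to 53.6% and 23.0 to 36.1%) did not overlap.

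The LAR-type phosphatases differed from one another. Ptprf, or LAR itself, was at 10.0 to 24.7 CPM (median 21.6) in PV WT V1 and at 73.4 to 108.5 CPM (median 91.5) in Camk2a WT V1 libraries, with log2 differences of -2.24 (SE 0.128), -2.39, -2.36 and -2.35. The other members of the family carried most of the family's level and differed little. Ptprs (PTP sigma) supplied a median of 82.4% in PV and 77.0% in Camk2a libraries and had log2 differences of -0.20 to -0.04, of which 3 were called. Ptprd (PTP delta) ranged from -0.33 to -0.09, with the calls in S1 alone and overlapping libraries in every pair.

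Both netrin-G genes, which encode lipid-anchored axonal proteins, were called lower in PV libraries in every pair. Ntng2 was at 3.94 to 10.8 CPM (median 7.84) in PV WT V1 libraries and at 31.4 to 47.0 CPM (median 41.5) in Camk2a WT V1 libraries, and its log2 differences were -2.43 (SE 0.143), -2.86, -2.78 and -2.56. Ntng1 differed less, with -0.54 (SE 0.099), -0.42, -0.96 and -0.67, and its libraries overlapped in 2 pairs. Ntng2 shares 13.98% of its exon bases with an annotated transcript on the same strand, so some of its reads cannot be assigned with certainty.

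Their postsynaptic receptors, the NGL proteins, showed each direction. Lrrc4c (NGL-1), the partner of netrin-G1, was lower in PV libraries by log2 differences of -0.86 (SE 0.076), -0.90, -0.82 and -0.92. Lrrc4 (NGL-2), the partner of netrin-G2, was higher, with 0.41 (SE 0.073), 0.21, 0.52 and 0.22. Lrrc4b (NGL-3), which binds LAR-type phosphatases, was called in S1 alone, at 0.20 in WT and 0.13 in KO. PV libraries thus had lower levels of both netrin-G genes and of Lrrc4c, and a higher level of Lrrc4.

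Of the neuroligins, the main receptors of neurexins, Nlgn1 differed most. It was at 29.5 to 38.8 CPM (median 33.9) in PV WT V1 and at 85.0 to 101.3 CPM (median 93.0) in Camk2a WT V1 libraries, and the classes were apart in every pair, with log2 differences of -1.51 (SE 0.053), -1.26, -1.62 and -1.51. Nlgn3 was lower to a smaller extent, from -0.45 to -0.39, again without overlap. Nlgn2, the neuroligin of inhibitory synapses and the most abundant of these 3 per length, was at 406 to 525 CPM (median 464) in PV WT V1 and 458 to 499 CPM (median 476.0) in Camk2a WT V1 libraries. Its values overlapped in every pair, and its log2 differences of -0.13 to -0.08 were called in WT V1 alone (adjusted p = 0.0404). Nlgn3 shares 41.24% of its exon bases with another gene on the same strand and Nlgn1 9.16% with a gene on the opposite strand, so their counts are less certain.

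The LRRTMs, postsynaptic neurexin receptors known mainly from glutamate synapses, were split in the same way. Lrrtm1 was lower in PV libraries, at -1.55 (SE 0.104), -1.04, -1.76 and -1.05, and Lrrtm4 at -1.01 (SE 0.080), -0.87, -1.10 and -0.91, both without overlap in any pair. Lrrtm3 was lower, at -0.58 to -0.24, called in all 4. Lrrtm2, the most studied neurexin ligand of the family, was called in no pair, with -0.12, -0.01, 0.14 and 0.04. Of the Lrrtm4 exon bases, 25.1% overlap a gene on the opposite strand.

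Slitrk1 stood out from its family, whose members bind LAR-type phosphatases. It was at 38.2 to 52.9 CPM (median 47.1) in PV WT V1 and at 148 to 193 CPM (median 179) in Camk2a WT V1 libraries, with log2 differences of -1.96 (SE 0.074), -1.87, -2.17 and -2.14 and no overlap in any pair. The other 4 SLITRK genes, Slitrk2 to Slitrk5, stayed within 0.54 log2 units, and each missed the threshold in at least 1 pair (Slitrk4 in 1, Slitrk5 in both KO pairs). Slitrk3, known from inhibitory synapses, was at -0.02 and -0.03 in WT (adjusted p = 0.801 and 0.588) and at -0.25 and -0.31 in KO, where it was called in both areas. Slitrk2 was the member of the family with a positive difference in every pair (0.29, 0.23, 0.26 and 0.10), called in 3. Slitrk1 accordingly held a median of 15.1% of the family's per-length level in PV libraries and 39.0% in Camk2a libraries.

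All 5 SALM genes, some of whose products bind LAR-type phosphatases or postsynaptic scaffolds, were called lower in PV libraries in all 4 pairs. Lrfn2 (SALM1), which is tied to NMDA and AMPA receptors, had the greatest difference, at 6.16 to 10.8 CPM (median 7.26) in PV WT V1 and 32.0 to 62.3 CPM (median 41.5) in Camk2a WT V1 libraries. Its log2 differences were -2.60 (SE 0.141), -2.37, -2.81 and -2.31, and no libraries overlapped. Lrfn5 and Lrfn4 followed with -0.94 to -0.77, and Lrfn1 and Lrfn3 ranged from -0.54 to -0.27.

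The calsyntenins, postsynaptic cadherin-like proteins, were divided. Clstn1 was lower in PV libraries, at -0.99 (SE 0.051), -0.90, -0.96 and a like amount in KO S1, while Clstn3 was higher by 0.72 (SE 0.069), 0.69, 0.64 and 0.64. Clstn2 was at 211 to 336 CPM (median 223) in PV WT V1 and 96.1 to 125.0 CPM (median 111) in Camk2a WT V1 libraries, and at 216 to 379 CPM (median 331) and 87.4 to 124.9 CPM (median 103.5) in the S1 libraries. None of the 3 genes had overlapping libraries in any pair. The Clstn2 differences were 1.00 (SE 0.091), 1.63 (SE 0.083), 0.86 and 1.27. Il1rapl1 was called lower in WT V1 (-0.26) and KO S1 (-0.37) only.

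Caspr proteins organize axonal domains with their contactin partners, and all 3 of those among the 47 were higher in PV libraries. Cntnap4 (Caspr4), a protein of interneuron synapses, was at 143 to 202.0 CPM (median 180.0) in PV WT V1 libraries and at 9.05 to 26.7 CPM (median 14.4) in Camk2a WT V1 libraries. Its log2 differences were the largest of the 47 in each pair: 3.42 (SE 0.189), 3.88 (SE 0.292), 3.46 (SE 0.161) and 4.30 (SE 0.275). The 6 Camk2a libraries of C3, C18 and C19 had 19.4 to 26.7 CPM of Cntnap4 and 169 to 536 CPM of the GABA-synthesis gene Gad1, against 4.73 to 15.6 CPM and 13.3 to 33.0 CPM in the other 23. Without these animals the Cntnap4 differences were 3.69, 4.35, 3.67 and 4.72. Cntnap2 (Caspr2), which gathers potassium channels next to nodes, was higher by 1.77 (SE 0.089), 1.58, 1.84 and 1.59, and Cntnap1 (Caspr), the paranodal member, by 0.80 (SE 0.060), 0.56, 0.89 and 0.53.

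Their partners, the contactins, went different ways. Cntn4 was higher in PV libraries by 0.92 (SE 0.084), 0.80, 0.93 and 0.70, and Cntn3 was lower, at -1.03 (SE 0.084), -1.17, -1.23 and -1.36, both without overlap. Cntn1, the contactin of the paranode, was lower, at -0.37 to -0.12, with 3 of 4 called and overlapping libraries. Summed CPM of the 10 oligodendrocyte markers also differed between the classes, with group medians of 549 to 738 CPM in PV and 241 to 352 CPM in Camk2a libraries, and whether this bears on Cntnap1 was not tested.

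Of the 3 FLRT proteins, which bind latrophilins and Unc5 receptors, Flrt3 was higher in PV libraries (0.40, 0.77, 0.42 and 0.83) and Flrt1 and Flrt2 lower (-1.31 to -0.96 and -1.47 to -1.09). Flrt3 made up a median of 48.9% of the per-length level of the family in PV libraries and 22.4% in Camk2a libraries. The teneurins, also latrophilin partners, were mixed in a similar manner. Tenm1 was higher by 1.57 (SE 0.088), 1.76, 1.18 and 1.23, with 44.7 to 74.7 CPM (median 68.7) in PV WT V1 and 18.9 to 24.7 CPM (median 19.9) in Camk2a WT V1 libraries. Tenm3 was lower, at -1.10 to -0.86, Tenm4 was lower, at -0.56 to -0.19, and Tenm2 was called in no pair (-0.52 to -0.14).

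All 3 SynCAM genes of the list, immunoglobulin-type proteins that bind each other on both sides of the cleft, were called lower in PV libraries in all 4 pairs. Cadm3 had log2 differences of -1.05 (SE 0.043), -0.99, -1.10 and -1.03 and no overlap. Cadm1 (-1.23 to -0.89) and Cadm2 (-0.96 to -0.61) overlapped in some pairs. The pattern over the 47 members was alike in the genotypes: WT and KO differences had the same sign for 46 members in V1 and for 46 in S1, with Pearson's r of 0.99 in each area. That r is a description over 47 genes, and WT and KO libraries came from different animals.

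**Figure D2:**
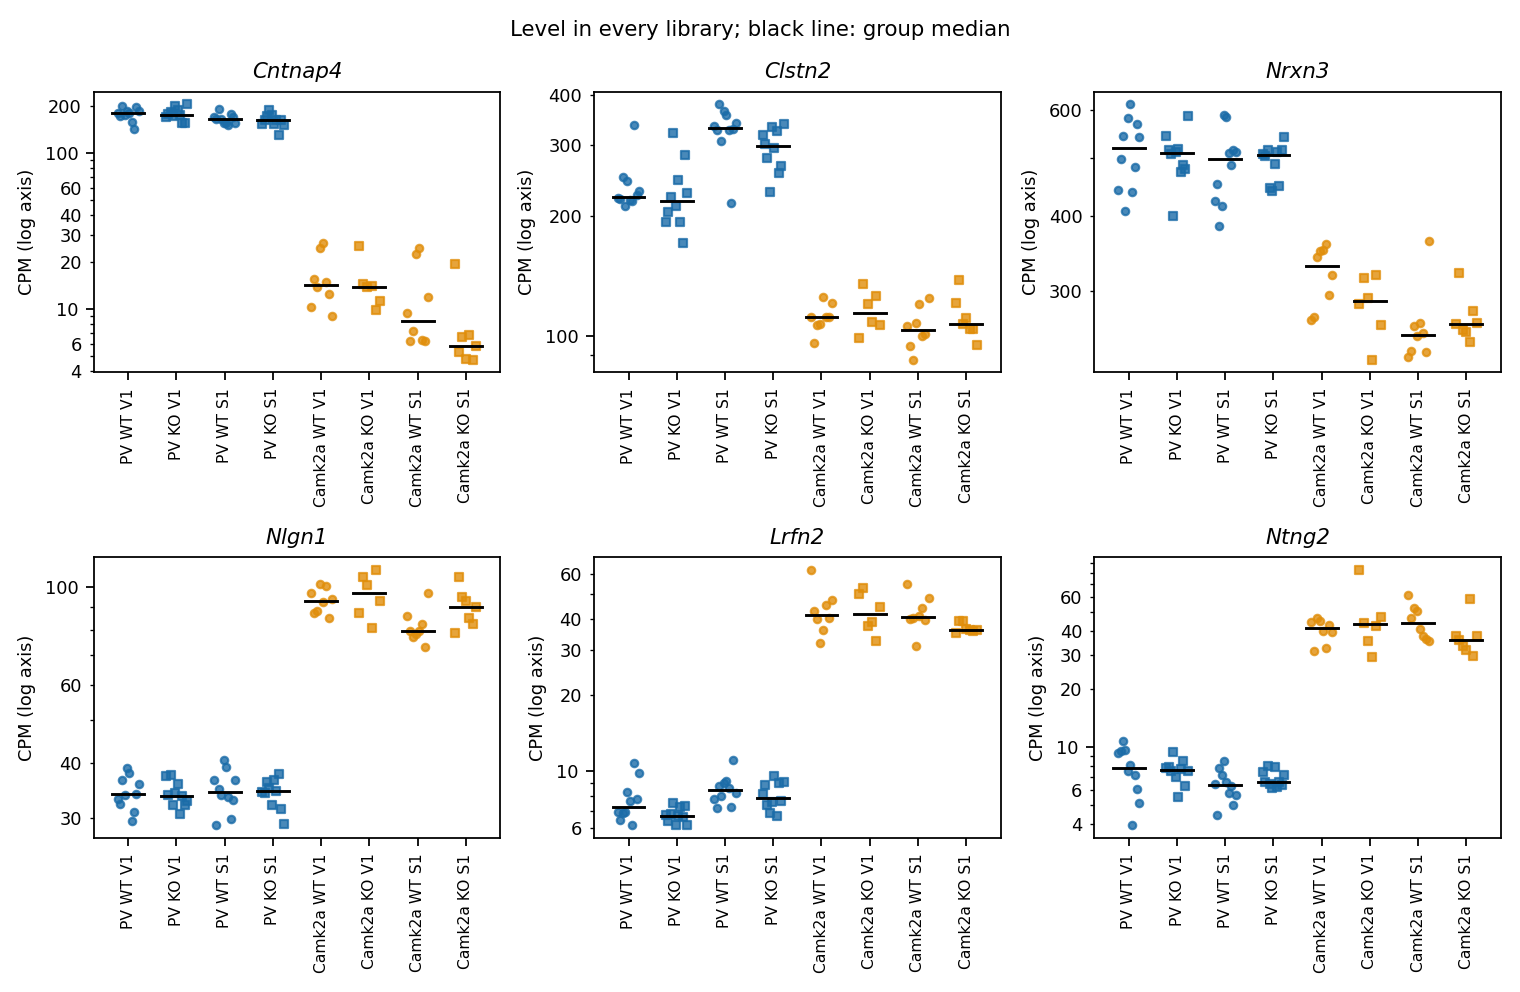
CPM (y axis, log scale) of 6 members in every library of the 8 groups (x axis); points are libraries, circles WT and squares KO, blue PV and orange Camk2a, and black lines are group medians. Cntnap4, Clstn2 and Nrxn3 lie higher and Nlgn1, Lrfn2 and Ntng2 lower in PV libraries without overlap, and the C3, C18 and C19 libraries form the upper Camk2a points of Cntnap4.

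The second comparison, the one the series was made for, set Fmr1 KO against WT within each class. In PV animals no member passed. With the libraries of an animal summed (10 WT, 9 KO), 0 of 47 members were called by edgeR and 0 by DESeq2, while 5 had an unadjusted p under 0.05 in edgeR. Of all genes, edgeR called 1.36% and DESeq2 2.73%. In the single areas the member counts were 0 in V1 (3 with an unadjusted p under 0.05, 0.191% of all genes called) and 0 in S1 (3, 0.77%). DESeq2 also called 0 in each, where it called 0.696% of all genes in V1 and 1.94% in S1. The median log2 difference (KO minus WT) was -0.01 for the members and 0.01 for all genes.

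The PV members with the smallest p over both areas, upward, were Il1rapl1 at 0.19 (SE 0.063, adjusted p = 0.181), Slitrk5 at 0.12 (SE 0.043, 0.235) and Slitrk2 at 0.12 (SE 0.049, 0.31). Slitrk5 was at 94.6 to 117.2 CPM (median 105.3) in the WT and at 112.0 to 122.0 CPM (median 115.8) in the KO animals. All 9 KO animals were above the WT mean, yet the ranges overlapped. A limma-voom fit that kept single libraries with the animal as replicate block called this gene (adjusted p = 0.0435) and no other member. Downward, the smallest p belonged to Clstn2 at -0.13 (SE 0.052, adjusted p = 0.277), Lrfn2 at -0.15 (SE 0.067, 0.344) and Cadm1 at -0.13 (SE 0.070, 0.467). For Clstn2 and Lrfn2 all 9 KO animals lay below the WT mean, with overlapping ranges.

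In Camk2a animals Tenm1 was called. Tenm1, a teneurin gene on the X chromosome (ENSMUSG00000016150, mm10, chrX:42527866-43429126, minus strand), was higher in KO by 0.49 log2 units (SE 0.104, adjusted p = 0.0227) with the libraries of an animal summed (7 WT, 6 KO). It was the single member called of 47 (1 higher, 0 lower), where 4.11% of all genes were called (2.05% higher, 2.05% lower). The animals had 17.9 to 23.3 CPM (median 18.4) in WT and 20.5 to 35.4 CPM (median 27.7) in KO. Every KO animal was above the WT mean, and the lowest KO animal fell inside the WT range.

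Tenm1 was also called in S1 alone, and not in V1 alone. The WT S1 libraries had 16.1 to 22.0 CPM of Tenm1 (median 18.5) and the KO S1 libraries 22.6 to 30.6 CPM (median 26.5), so all 7 KO libraries lay above all 8 WT libraries. The log2 difference there was 0.54 (SE 0.081, adjusted p = 0.00225), and it kept an adjusted p of 0.0103 or less under every alternative tried in S1. Those alternatives left out only C24, or C3, C18 and C19 together, so the other animals were not left out singly in S1. In V1 the WT libraries had 18.9 to 24.7 CPM (median 19.9) and the KO libraries 18.0 to 44.8 CPM (median 26.7), which overlapped, and the difference of 0.39 (SE 0.138) was not called (adjusted p = 0.159). The difference between the areas was not tested.

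The summed Tenm1 call did not hold in every fit. It was lost when C7, C15, C16 or C23 was left out (0.44 to 0.48, adjusted p = 0.0522 to 0.0661). In those fits 1.4 to 1.63% of all genes were called, against 4.11% with all animals. The call was also lost without C3, C18 and C19 (0.44, adjusted p = 0.077, 0.783% of all genes called), and held in the other leave-one-out fits. C16 and C23 are among the animals whose sex label and Y-linked genes differed. With sex by Y-linked genes the call held. The library with 44.8 CPM was the V1 library of C3, one of the animals with high PV markers. Over the 6 libraries of C3, C18 and C19, Tenm1 had a median of 23.4 CPM, against 21.9 CPM in the other 23 Camk2a libraries and 68.1 CPM in PV libraries, and without C3 the summed difference was 0.42 (adjusted p = 0.0389). In PV animals Tenm1 was at 0.06 (adjusted p = 0.869), and the difference of the genotype effect between the classes, PV minus Camk2a, was -0.42 (SE 0.141, adjusted p = 0.2). Thus the effect in Camk2a animals was not shown to differ from that in PV animals.

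**Figure D3:**
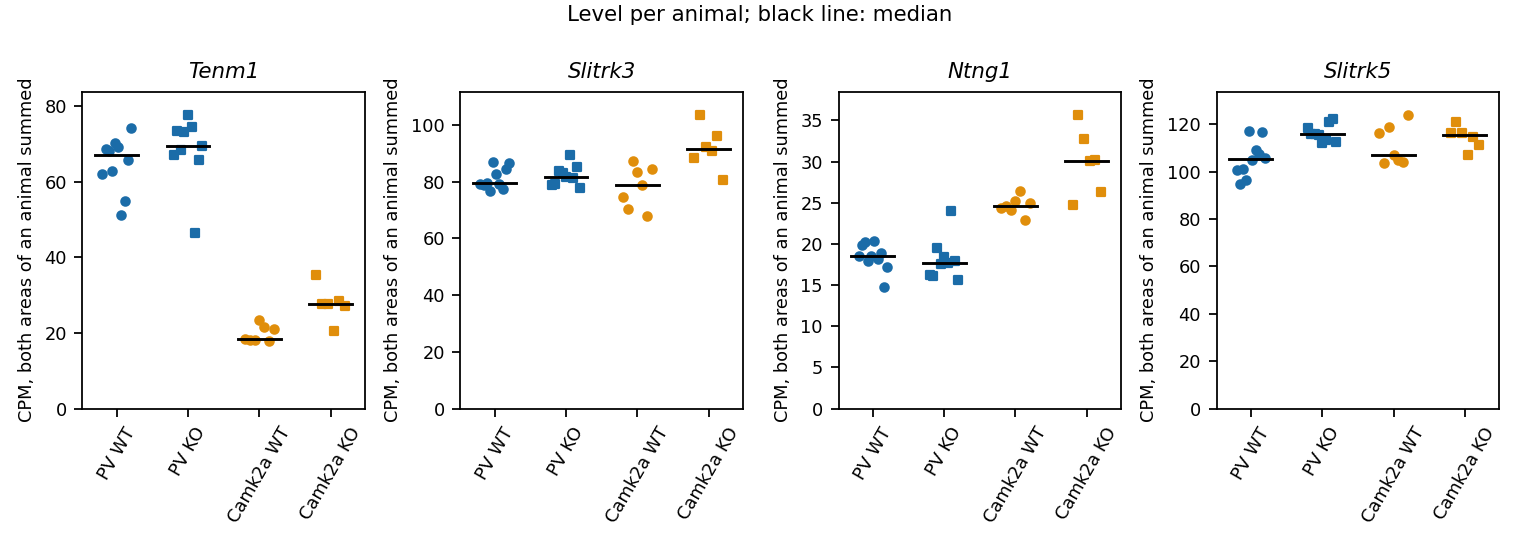
CPM per animal with both areas summed (y axis) for Tenm1, Slitrk3, Ntng1 and Slitrk5 in the WT and KO animals of each class (x axis); points are animals and black lines medians. The Camk2a KO animals lie above the WT median for Tenm1, Slitrk3 and Ntng1, while the ranges of each pair of groups overlap.

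Slitrk3 was the other member called in Camk2a S1, where 2 of 47 members passed (2 higher, 0 lower) against 4.09% of all genes (1.99% higher, 2.09% lower). Its libraries had 69.4 to 88.9 CPM (median 76.8) in WT and 85.0 to 106.0 CPM (median 90.5) in KO. All 7 KO libraries were above the WT mean, with an overlap at the edge. The difference of 0.25 (SE 0.069) had an adjusted p of 0.0479, so close to the threshold that RLE size factors gave 0.0509 and leaving out C3, C18 and C19 gave 0.0899. With areas summed it was 0.24 (SE 0.072, adjusted p = 0.0667). All 5 SLITRK genes had a positive difference in summed Camk2a animals (0.04 to 0.24), of which none was called.

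In Camk2a V1 edgeR and DESeq2 each called 0 of 47 members, with 7 at an unadjusted p under 0.05 in edgeR. Of all genes, edgeR called 1.4% and DESeq2 5.5%. The smallest p in V1 belonged to Lrrtm2 at -0.27 (adjusted p = 0.129), then Tenm1 at 0.39 (0.159) and Ntng1 at 0.28 (0.179). With areas summed, the uncalled member next to the threshold was Ntng1, the netrin-G1 gene. Its animals had 22.9 to 26.4 CPM (median 24.7) in WT and 24.8 to 35.6 CPM (median 30.1) in KO. Its differences were 0.29 (SE 0.083, adjusted p = 0.0629) over both areas and 0.23 (SE 0.064, adjusted p = 0.0519) in S1, and DESeq2 and limma-voom called it over both areas (adjusted p = 0.0235 and 0.0243). Lrrtm1 was at 0.20 (SE 0.062, adjusted p = 0.0811) in the same summed animals. On the lower side of the summed comparison the smallest p belonged to Lrrtm2 at -0.20 (SE 0.074, adjusted p = 0.121), which was called without C14 (-0.26, adjusted p = 0.036). Ptprs followed at -0.10 (SE 0.046, adjusted p = 0.206), with 709.9 to 783.6 CPM (median 737) in WT and 632 to 726 CPM (median 699) in KO animals. All 6 KO animals were below the WT mean for Ptprs, the ranges overlapped, and limma-voom with the animal as replicate block called it lower (-0.12, adjusted p = 0.0368). Cntnap4 had a difference of -0.35 with a wide error (SE 0.341, adjusted p = 0.577). The 12 PV markers moved with Cntnap4: 11 of 12 were lower in KO in this comparison, with a median of -0.97 and none called, and 2 of the 3 animals with high PV markers were WT. Their part in the Camk2a results was not tested.

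Over the list, 31 members had a positive and 16 a negative difference in summed Camk2a animals, and 51.0% of all genes were positive. The median was 0.05 against 0.00 for all genes, and 12 members and 23.0% of all genes had an unadjusted p under 0.05. In PV animals 17 were positive and 30 negative, and 52.8% of all genes were positive. No member passed the test of the difference between classes, with 0 of 47 by edgeR (0.712% of all genes called) and 0 by DESeq2 (1.42%). In the edgeR fit 6 members had an unadjusted p under 0.05. There, 13 members had a positive and 34 a negative value of PV minus Camk2a, and 52.7% of all genes were positive. Among these, Ntng1 was at -0.32 (SE 0.104, adjusted p = 0.174) and Slitrk3 at -0.24 (SE 0.076, adjusted p = 0.169). Besides Tenm1, 4 members lie on the X chromosome with Fmr1: Slitrk2 and Slitrk4 at 2.02 and 4.4 Mb from it, Il1rapl1 at 18.02 Mb and Nlgn3 at 32.58 Mb, and Tenm1 at 25.25 Mb. None of the other 4 was called in any genotype comparison, and whether alleles linked to the knockout differ between the lines was not tested.

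**Figure D4:**
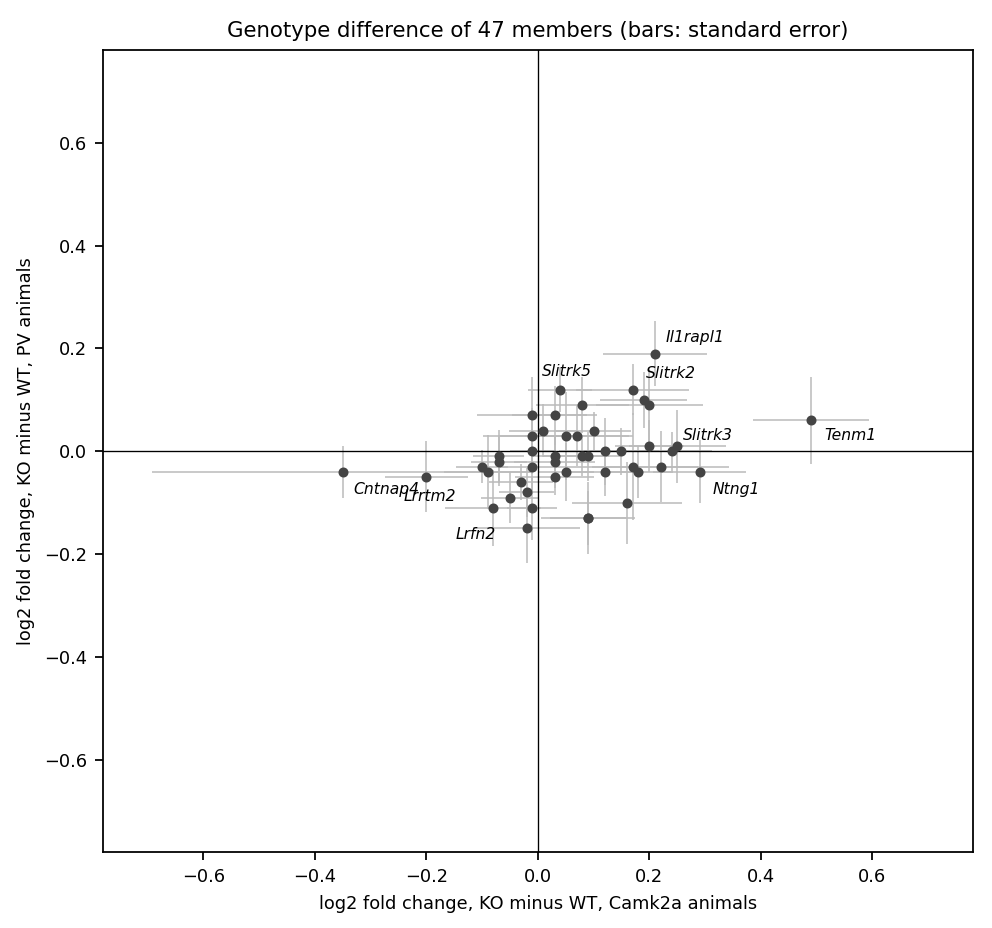
Log2 fold change between KO and WT of the 47 members in Camk2a animals (x axis) and PV animals (y axis), both areas summed, with standard errors as bars. Tenm1 lies farthest to the right at 0.49, and no member in PV animals passes 0.19 in size.

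The third comparison set V1 against S1. The main area fits took each library as a sample and did not pair the areas of an animal. Fits with the animal as replicate block are given below. Tenm2 and Cadm1 had the largest area differences of the list, and both had higher V1 medians in each class and genotype, although not every test called them. Tenm2, a teneurin that binds latrophilins, was at 52.5 to 170.1 CPM (median 148.5) in PV WT V1 and at 55.8 to 116.0 CPM (median 65.6) in PV WT S1 libraries. In Camk2a KO it was at 119.3 to 200.6 CPM (median 172.0) in V1 and 66.4 to 89.1 CPM (median 73.1) in S1. The Camk2a KO areas did not overlap, while the PV WT areas did through 1 animal. The log2 differences of Tenm2 (V1 minus S1) were 0.94 (SE 0.172, adjusted p = 0.00585) in PV WT, 0.85 (SE 0.205, 0.0306) in PV KO, 0.88 (SE 0.252, 0.0742) in Camk2a WT and 1.14 (SE 0.121, 2.52e-05) in Camk2a KO.

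Cadm1 (SynCAM1) was at 40.0 to 109.0 CPM (median 91.4) in PV WT V1 and 40.7 to 88.6 CPM (median 49.3) in PV WT S1 libraries. In Camk2a KO its 6 V1 libraries lay within 167 to 176 CPM (median 172) and its 7 S1 libraries within 80.3 to 95.3 CPM (median 83.6), far apart. Its differences were 0.71 (SE 0.149, adjusted p = 0.00679), 0.76 (SE 0.176, 0.0297), 0.74 (SE 0.198, 0.0641) and 1.01 (SE 0.056, 4.8e-08) in the same order. Both genes were higher in V1 in 9 of 10 PV WT animals with both areas, 7 of 9 PV KO, 6 of 7 Camk2a WT and 6 of 6 Camk2a KO animals. The animals with the reverse order were P22, P9, P24 and C24, all of which had area genes outside the list on the side of the other area. C18 and C19, whose V1 libraries also stood there, had the usual order for both genes. Without C24 the Camk2a WT differences were 1.26 (adjusted p = 9.87e-07) for Tenm2 and 1.04 for Cadm1. Without P22 the PV WT differences were 1.15 and 0.90, and without P9 and P24 the PV KO differences were 1.20 and 1.06.

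**Figure D5:**
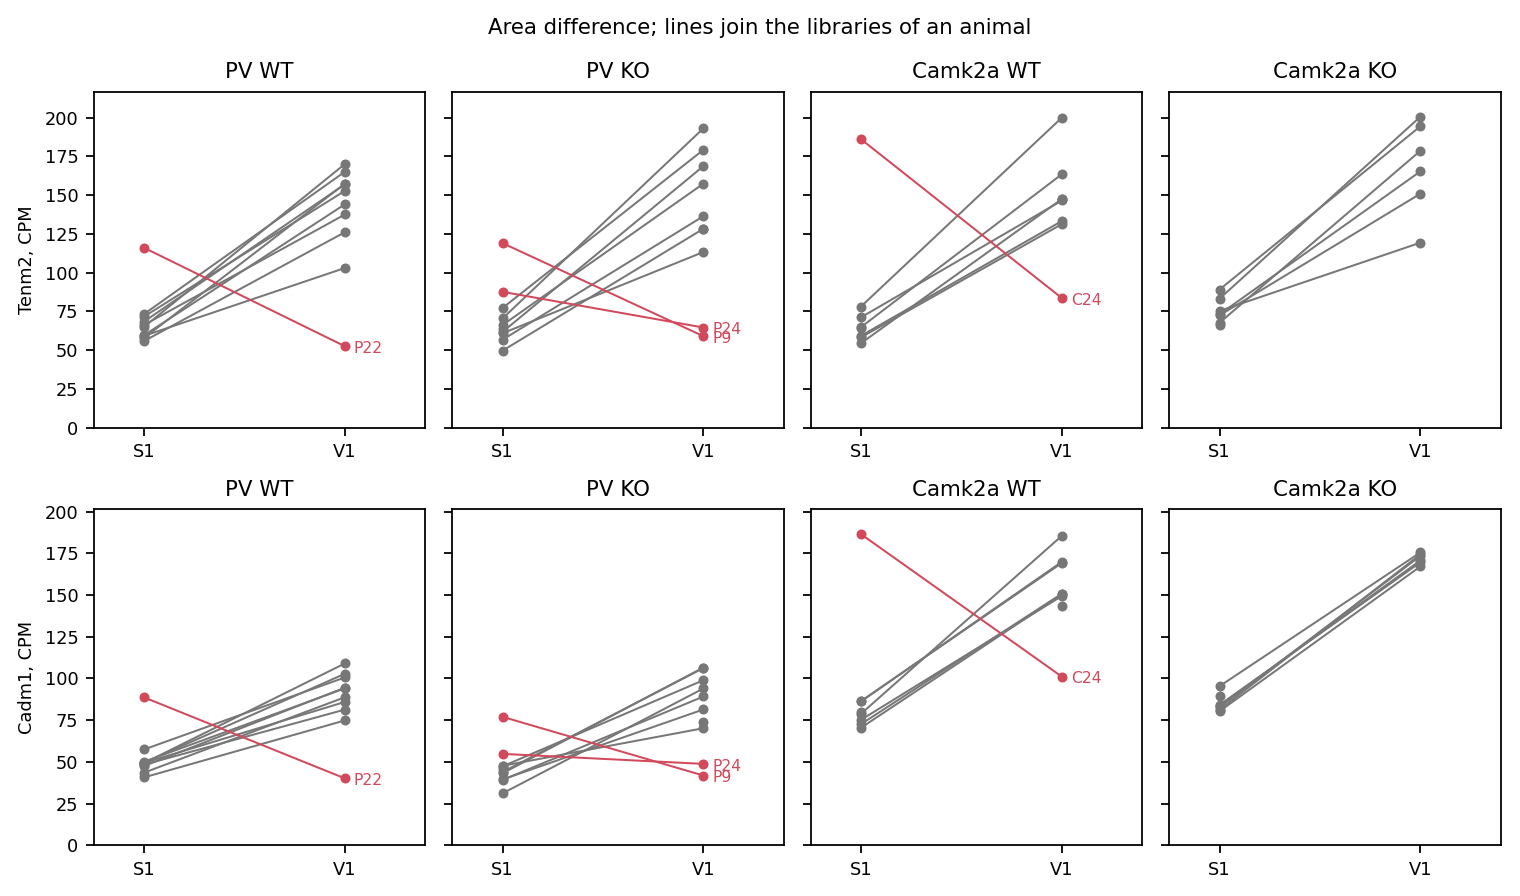
CPM of Tenm2 (upper row) and Cadm1 (lower row) in the S1 and V1 libraries of each animal (x axis), by class and genotype; lines join the libraries of an animal, and animals with 1 area are single points. The red lines of P22, P9, P24 and C24 fall from S1 to V1 while the others rise.

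In PV WT libraries 8 of 47 members were called (7 higher and 1 lower in V1). Of all genes, 20.6% were called there, 10.7% higher and 9.95% lower. In PV KO libraries 7 members were called (4 higher, 3 lower), and 7.56% of all genes, 3.47% higher and 4.09% lower. Ptprf was higher in V1 in both, by 0.53 (SE 0.108, adjusted p = 0.00594) and 0.41 (SE 0.112, 0.036), and so was Cntn3, by 0.35 (SE 0.075, 0.00656) and 0.33 (SE 0.064, 0.0277). Clstn2 was lower in V1, at -0.49 (SE 0.095, adjusted p = 0.00587) in WT and -0.40 (SE 0.109, 0.0375) in KO; its PV WT medians were 223 CPM in V1 and 331 CPM in S1. In PV WT, Tenm3 (0.34), Cntn4 (0.19) and Lrrtm4 (0.18) were also higher in V1, with adjusted p = 0.0419, 0.0415 and 0.0403. In PV KO, Lrfn2 (-0.29) and Lrrtm1 (-0.24) were lower, with adjusted p = 0.0341 and 0.0297.

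With the animal as replicate block, PV WT had 9 members called, 5 of them among the 8, where 26.6% of all genes were called. PV KO had 0 members and 0 genes of the whole table called under the block. The PV KO differences hardly moved under the block (Tenm2 0.82, Cadm1 0.76, Clstn2 -0.43), but their adjusted p was 0.113, 0.104 and 0.0899, and the lowest of the 7 was 0.0706, shared by Cntn3 and Lrrtm1. In PV WT the 3 calls lost under the block were Tenm3 (0.31, adjusted p = 0.0745), Cntn4 (0.19, 0.0629) and Lrrtm4 (0.18, 0.0513). Without P22, PV WT had 18 members and 31.6% of all genes called, and without P9 and P24, PV KO had 15 members and 21.6% of all genes. These animals were chosen by their area genes, members left out, so larger counts without them follow in part from the choice.

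In Camk2a KO libraries 11 of 47 members were called (9 higher and 2 lower in V1), where 13.1% of all genes were called (6.42% higher, 6.65% lower), and 12 with the animal as replicate block, including all 11, where 20.9% of all genes were called. After Tenm2 and Cadm1 came Cntnap4 at 1.01 (SE 0.280, adjusted p = 0.0304), Lrrtm1 at 0.48 (SE 0.074, 0.000444) and Tenm3 at 0.47 (SE 0.137, 0.0342). The Camk2a KO medians of Cntnap4 were 13.9 CPM in V1 and 5.81 CPM in S1, each with 1 library of C3 well above the rest (25.4 and 19.4 CPM). Without C3 the difference was 1.15 (adjusted p = 1.16e-04), and without the sex term it missed the threshold (0.94, adjusted p = 0.0952). Ptprf (0.43), Flrt3 (0.39), Lrrtm4 (0.36) and Lrrtm3 (0.29) were also higher in V1. The 2 members lower in V1 were Cntnap1, at -0.35 (SE 0.071, adjusted p = 0.00327), and Lrrc4, at -0.31 (SE 0.063, adjusted p = 0.0036), each lower in V1 in all 6 animals.

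In Camk2a WT libraries 1 member was called, Tenm3 at 0.50 (SE 0.088, adjusted p = 0.0362), where 0.359% of all genes were called. With the animal as replicate block the count was 0 (Tenm3 0.46, adjusted p = 0.127), and without C18 and C19 it was 0 as well (Tenm3 0.47). A positive difference was found for 41 of 47 members and for 47.9% of all genes, and an unadjusted p under 0.05 for 24 members and 22.8% of all genes. The median was 0.12 for the members and -0.01 for all genes. Without C24 the count was 21 members, with 21.8% of all genes called.

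Across the classes, Cadm1, Lrrtm4, Ptprf, Tenm2 and Tenm3 were called higher in V1 in all 4 sets of libraries once P22, P9, P24 and C24 were left out. Those animals were left out because their area genes ran against their labels, and the share of all genes called in all 4 sets was not computed, so this is a description of the 5 genes. Lrrtm1 was called in opposite directions, lower in V1 in PV libraries (-0.24 in KO with all animals) and higher in Camk2a libraries (0.48 in KO). It was lower in V1 in 8 of 9 PV KO animals and higher in 6 of 6 Camk2a KO animals. Clstn2, lower in V1 in PV libraries, was at 0.10 and 0.06 in Camk2a WT and KO (adjusted p = 0.316 and 0.784). The difference of the area effect between classes was not tested for these genes.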

How the data were processed

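The deposited table holds estimated counts per gene, which the authors made from RNA-seq reads of tagged ribosomes; STAR, Salmon, limma and the build mm10 are named in the submitters' processing notes, without versions or order. Of its values, 71.1% were not whole, and they were rounded. Ensembl identifiers were named from GENCODE M21 (17614 of 17634 matched, 20 did not). Levels are CPM on plain library totals, and per-length levels divide by the longest annotated transcript. Log2 differences were computed after TMM scaling, whose factors over all libraries had a median of 0.96 in Camk2a and 1.029 in PV libraries. Small class differences can therefore differ in sign from plain CPM. For example, the ratio of mean CPM, PV over Camk2a, in KO S1 was 1.057 for Ptprs and 1.026 for Nlgn2, while both log2 differences were negative. Tests used edgeR 4.0.16 (R 4.3.3) with the quasi-likelihood fit, TMM scaling, filterByExpr and sex as a covariate, adjusted over all genes by the Benjamini-Hochberg method, and were tested on simulated data. Only the groups compared entered a fit. For genotype, libraries of an animal were summed, with the single areas fitted separately. V1 and S1 libraries were paired by the animal code in their names, and the area fits without and with the animal as replicate block are both given. Standing on the side of the other area was judged by a score of 50 genes higher and 50 genes lower in V1, taken from the other class with the members left out.

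Alternatives were RLE size factors, no filter, DESeq2 1.42.0, no sex term, sex by Y-linked genes, limma-voom (limma 3.58.1) with the animal as block, and leaving out animals; the block together with leaving out animals was added after seeing the data. Every member is accounted for. Values are given for members called by genotype, the largest class and area differences, and whole families. Where no member was called by genotype, the 3 smallest p in each direction are given for summed PV animals. In the single areas and the test between classes, values are given for some or none of them. The members, the 40 partner genes and the marker lists were chosen with earlier results of these data known. An animal counts once in the main genotype and class fits. In the area fits without the replicate block, an animal with both areas enters with each of its libraries. RefSeq promoters (GRCm38.p6) were read by gene symbol. The reads were not stated to be counted by strand, so genes that overlap on opposite strands cannot be told apart.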

Additional observations from a re-analysis of the deposited data

Results flagged for a closer look

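Member levels were checked for a single library far from the rest of its group in 256 sets (each of 32 named members in each of 8 groups). This gave 28 cases, each of 1 member in 1 library, and several cases can come from the same library. Chance gives about 1 in 20 sets, and members measured in 1 library are not independent of one another.

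Many belonged to animals already named for their area genes. In P22 (PV WT), Clstn2 was at 336 CPM in V1 and at 216 CPM in S1, where the nearest other libraries had 250 and 306 CPM. Cadm1 in the same animal was at 40.0 CPM in V1 and 88.6 CPM in S1 (nearest 74.8 and 57.4), and Tenm2 at 116 CPM in S1 (nearest 73.3). Cadm1 in the S1 library of P9 (PV KO) was at 77.0 CPM (nearest 54.8). The S1 library of C24 (Camk2a WT), the only one labelled Batch 2, stood apart in 7 members. It was highest for Cadm1 at 186 CPM (nearest 86.4), Tenm2 at 186 CPM (nearest 78.1), Nrxn3 at 364 CPM (nearest 266), Slitrk5 at 130.0 CPM (nearest 113), Lrrtm3 at 92.8 CPM (nearest 74.8) and Lrrtm1 at 77.5 CPM (nearest 61.3). It was lowest for Cntnap1 at 263 CPM (nearest 337). All 7 values differed from the S1 median of the group in the direction of its V1 median. The batch and the area label of this library cannot be told apart. The V1 library of C24, of Batch 1, was also on the side of the other area, but its score of -0.08 was close to those of C18 and C19 (-0.03 and 0.03).

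Animals with high PV markers gave Cntnap4 at 25.4 CPM in V1 and 19.4 CPM in S1 of C3 (nearest 14.6 and 6.84), Ntng2 at 82.8 CPM in V1 of C3 (nearest 47.6), Lrrc4b at 263 CPM in V1 of C18 (nearest 234) and Cntnap2 at 150.0 CPM in S1 of C19 (nearest 129). Ntng2 was lower in PV than in Camk2a libraries, and its high value in C3 lay away from the PV level.

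The other cases were in S1 libraries. Among PV KO libraries, P23 had Cntnap2 at 324 CPM (nearest 384), Lrfn3 at 36.3 CPM (nearest 30.6) and Ntng1 at 26.1 CPM (nearest 20.1), and the PV WT library of P26 had Lrfn2 at 11.1 CPM (nearest 9.18). Among Camk2a KO libraries, C4 had Nrxn3 at 322 CPM (nearest 278), Cadm2 at 502 CPM (nearest 375) and Slitrk2 at 33.4 CPM (nearest 26.0). C7 had Ntng2 at 58.5 CPM (nearest 37.7) and Lrrtm3 at 60.1 CPM (nearest 70.5), and C14 had Lrrtm2 at 79.0 CPM (nearest 66.5).

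Although no member passed the test of a genotype effect that differs between classes, 2 of 40 partner genes did, and 0.712% of all genes. Gpc4, the heparan sulfate proteoglycan glypican-4, had a difference (PV minus Camk2a) of -1.03 (SE 0.242, adjusted p = 0.0337, edgeR's quasi-likelihood test). Its animals had 1.94 to 3.09 CPM (WT) and 1.28 to 2.45 CPM (KO) in the PV class and 4.17 to 7.71 CPM (WT) and 4.89 to 12.8 CPM (KO) in the Camk2a class. Of the 6 Camk2a KO animals 4 were above the WT mean, and Gpc4 was not called within that class. Gpc4 lies on the X chromosome with Fmr1 (chrX:52053021-52165252), and whether linked alleles differ was not tested. Cdh2, N-cadherin, had a difference of -0.34 (SE 0.071, adjusted p = 0.016). All 6 Camk2a KO animals were above the WT mean for Cdh2, and 8 of 9 PV KO animals were below it.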

How the results depend on the processing

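The counts of members called in the 4 class comparisons moved little under any alternative (39 to 43), and no result reversed. Each other count is given with the share of all genes called in the same fit. With both areas summed, PV genotype (0) called 1 member in limma-voom with the animal as replicate block (Slitrk5, 2.47% of all genes). The same comparison called 0 in each of 19 leave-one-out fits, where 0.839 to 1.49% of all genes were called. Camk2a genotype (1 member) gave 4 with DESeq2 (10.3%), 2 without the sex term (5.2%) and 5 with limma-voom and the replicate block (12.2%). It gave 0 without C3, C18 and C19 (0.783%) and 3 without C24 (8.06%). Over 13 leave-one-out fits it gave 0 to 4 members, where 1.4 to 8.06% of all genes were called. The lowest share came with 0 members (without C7), and the 4 members came with 6.36% (without C14). In Camk2a S1 (2 members) RLE size factors gave 1 (4.13%), leaving out C3, C18 and C19 gave 1 (1.91%), and leaving out C24 gave 5 (10.5%). PV WT by area (8) gave 18 without P22 (31.6%), and 25 with the replicate block as well (42.0%). PV KO (7) gave 0 with the replicate block (0 genes in all), 15 without P9 and P24 (21.6%), and 23 with both (28.6%). Camk2a WT (1) gave 14 with DESeq2 (8.78%), 3 without the sex term (2.47%), 4 with sex by Y-linked genes (1.99%), 0 with the replicate block (0.0448%), 0 without C18 and C19 (0 genes in all), 21 without C24 (21.8%), and 31 with the block and without C24 (33.7%). The cause of these shifts was not tested. All 47 members passed the filter on low counts in each comparison, so depth kept none out of a test. The genotype p-values within a class measure the spread between animals of 1 driver line. The area p-values without the replicate block measure the spread between libraries, and most animals gave both areas.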

Other observations

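Besides the 47 organizers, 40 further adhesion genes of the same synapses were measured: secreted bridging proteins, latrophilins and other adhesion receptors, N-cadherin, further contactins and the scaffolds that bind organizers inside the cell. In the class comparison 27 were called lower and 9 higher in PV libraries in WT V1, out of 40 tested, and the counts in WT S1 were 27 and 8 of 39. Of all genes, 37.5% were called lower and 39.8% higher in WT V1, and 38.1% and 39.1% in WT S1. The lowest values in WT V1 were those of secreted proteins that bridge the cleft. Nptx2, a pentraxin that gathers AMPA receptors, was at -4.32, Cbln1, which links neurexin to delta glutamate receptors, at -3.95, and C1ql3, a complement-like ligand, at -3.73. The highest were Cntnap3, a further Caspr gene, at 3.66, Il1rapl2 at 1.74 and Cntn5 at 1.70.

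By genotype, 3 of the 40 fell in KO in summed PV animals, where 1.36% of all genes were called: Gpc4 by 0.48 (SE 0.120, adjusted p = 0.0475), Elfn2, a postsynaptic binder of metabotropic glutamate receptors, by 0.18 (SE 0.041, 0.0294), and Adgrb2, an adhesion G protein-coupled receptor, by 0.17 (SE 0.036, 0.0132). In summed Camk2a animals 2 of the 40 were called, a share near the 4.11% of all genes: Cdh2 rose by 0.24 (SE 0.056, adjusted p = 0.0306) and Cadm4, the SynCAM outside the 47, fell by 0.28 (SE 0.062, 0.026). The Cdh2 levels were 126 to 156 CPM (median 141) in the 7 WT and 156 to 176 CPM (median 170.2) in the 6 KO animals, which overlapped at their edges. These lists were chosen with earlier results of these data known, and the tests are from edgeR.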
